A study of Mus musculus with 2 samples.

Results

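Transcription factors that specify cortical interneurons were followed across the cell classes of the embryonic mouse telencephalon. The set held 8 genes, Nkx2-1, Lhx6, Maf, Satb1, Prox1, Sp8, Nr2f1 and Nr2f2, found by symbol among the 32285 genes of the deposited count tables. Their raw UMIs (unique molecular identifiers, each standing for 1 captured mRNA molecule) were read in cells holding between 1500 and 60000 UMIs, of which less than 10% were mitochondrial. Levels are given as CPM, the UMIs of the gene as a share of all UMIs of a class in a library, scaled to 1e+06.

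Single-cell RNA sequencing was performed on 2 wild-type (WT) libraries of mouse embryos at embryonic day (E) 16.5, labelled WT replicate 1 and WT replicate 6. The series was designed around deletion of Dot1l, a histone methyltransferase gene, by Emx1-Cre, which recombines in cortical progenitors and their offspring. Conditional knockout embryos were not analysed here, so no genotypes were compared, and the labels do not say whether the WT embryos carried the Cre or the floxed allele. The labels name brain hemispheres as the tissue and the protocol describes dissection of the dorsal telencephalon. Both libraries nevertheless held many cells of the ventral telencephalon, as counted below. Nothing in the labels says that the libraries came from separate embryos, so p-values measure the spread between these 2 libraries. Both classes of every comparison came from the same libraries.

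Cortical inhibitory interneurons are born outside the cortex, in the ganglionic eminences of the ventral telencephalon, and migrate into it. In progenitors of the medial ganglionic eminence (MGE), NKX2-1 switches on Lhx6, whose protein in turn acts through factors such as SATB1 to direct migration and the identity of somatostatin and parvalbumin interneurons. Interneurons of the caudal ganglionic eminence (CGE) are marked instead by PROX1, SP8 and the nuclear receptors NR2F1 and NR2F2, also called COUP-TFI and COUP-TFII. NKX2-1 is lost from cells bound for the cortex and retained in many that settle in the striatum and pallidum.

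WT replicate 1 held 14136 cells with 74930397 UMIs and WT replicate 6 held 13046 cells with 68964234 UMIs, and 14571 cells remained after filtering and removal of likely doublets. Of these, 10013 cells (68.7%) met the marker gate of exactly 1 of 21 classes, 4419 met none and 139 met more than 1. No gate used any of the 8 genes. Sox6 and Nxph1 marked MGE-like neurons, with Nxph1 at 3930 CPM against 77.5 CPM in CGE-like neurons. CGE-like neurons were carried mainly by Adarb2 at 11421 CPM, while Htr3a and Cxcl14 stood at 46.9 and 23.7 CPM and Vip was at 0. Neurons assigned to the dorsal lateral ganglionic eminence (dLGE-like) were carried by Pbx3 at 4594 CPM and held Adarb2 at 1184 CPM as well. Gates were close in 944 of 3692 subpallial neurons, whose leading subtype held 50 to 70% of the subtype UMIs. The libraries shared 20 barcodes among the cells kept.

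MGE-like neurons numbered 1130, of which 192 carried Sst UMIs (Sst+) and 938 did not (Sst-). An Sst UMI was thus found in 16.99% of MGE-like cells, against 4% of CGE-like and 4.04% of excitatory-like cells, so some Sst+ cells may hold only free Sst RNA. How many was not tested. There were 475 CGE-like, 393 dLGE-like and 812 striatal-like neurons, 632 cycling eminence progenitors, 330 radial glia (RGC-like), 541 intermediate progenitors (IPC-like) and 4730 excitatory-like neurons. Erythroid-like cells, which should lack these factors, give the background from RNA free in the droplets. In those cells, after thinning every cell to 2000 UMIs, between 0% (Nkx2-1) and 3.04% (Maf) of cells held a UMI of a member, at a median depth of 3439 UMIs per cell before thinning. The corresponding depths were 3771 in MGE-like, 3436 in CGE-like and 9787.5 UMIs in eminence progenitors. No background was scaled to the depth of each class, so the erythroid-like values need not hold for the deeper ones. Erythroid-like cells were also gated on at least 30% globin UMIs, and the other classes on under 10%. Globin lowers the share left for other RNA, so these values may understate the background.

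Nkx2-1, the gene at the head of the MGE pathway, was found in eminence progenitors and MGE-like neurons. It reached 37.2 and 21.7 CPM in eminence progenitors of WT replicates 1 and 6, from 38 and 18 cells. MGE-like neurons held 44.1 and 32.0 CPM. The library values of these classes overlapped. CGE-like neurons held 14.4 and 8.74 CPM, from 16 and 8 UMIs. In the direct and indirect striatal-like neurons 1 UMI was counted in all, and microglia-like, endothelial-like, mural-like and fibroblast-like cells had 0.

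Lhx6, a LIM homeobox gene and direct target of NKX2-1, was concentrated in MGE-like neurons. These neurons carried 244 and 258 CPM in WT replicates 1 and 6, and 39.0% of their thinned cells held a UMI. CGE-like neurons followed with 33.3 and 24.03 CPM, and eminence progenitors with 26.8 and 13.5 CPM. RGC-like cells had 1 UMI in each library. Thinned RGC-like cells held a UMI in 0.31%, no more than the 0.44% of erythroid-like cells. The MGE-like level was 127-fold above that of excitatory-like neurons, which held 2.23 and 1.72 CPM.

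Maf encodes a bZIP factor of MGE interneurons that is also known from macrophages. Its level in MGE-like neurons was 510.3 and 483 CPM, and Sst+ and Sst- cells overlapped at 475 ± 33.9 and 503 ± 33.9 CPM (SD, n = 2). Microglia-like cells were higher, at 675 and 919 CPM, and fibroblast-like cells held 165 and 152 CPM. CGE-like neurons followed with 64.9 and 55.7 CPM. Eminence progenitors, which were not split by eminence, were 58.3-fold below MGE-like neurons, at 10.8 and 6.26 CPM. This level was no higher than the 11.04 ± 2.46 CPM of erythroid-like cells. The erythroid-like cells were shallower (median 3439 against 9787.5 UMIs), so this does not place Maf at background in the progenitors.

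Satb1, a chromatin organiser needed for maturation of SST interneurons, was found in excitatory as well as inhibitory classes. Sst+ MGE-like neurons carried 475 CPM in WT replicate 1 and 320.1 CPM in WT replicate 6, and Sst- neurons 200.3 and 199.7 CPM. Newborn excitatory-like neurons at 102 ± 12.8 CPM, CGE-like neurons at 102 ± 8.49 CPM and IPC-like cells at 91.1 ± 9.15 CPM (SD, n = 2) overlapped one another. Upper-layer-like neurons held 41.0 ± 1.64 CPM, 2.50-fold less than newborn neurons. Striatal direct-like neurons were at 19.5 and 19.2 CPM.

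Prox1, a homeobox gene that marks CGE interneurons, peaked in CGE-like neurons at 224 and 233 CPM, with 30.2% of thinned cells holding a UMI. Eminence progenitors came next at 58.1 and 56.7 CPM. IPC-like cells of the cortex held 42.9 and 32.4 CPM, 28.1-fold above the excitatory-like neurons at 1.37 and 1.31 CPM. RGC-like cells lay between these at 17.7 and 19.1 CPM. In upper-layer-like neurons 4 and 6 UMIs were counted.

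Sp8, a zinc-finger gene of the CGE and dLGE, did not separate those classes. CGE-like neurons held 77.5 and 76.5 CPM and dLGE-like neurons 57.1 and 91.4 CPM. Eminence progenitors carried 40.9 and 54.4 CPM. In MGE-like neurons Sp8 stood at 14.9 and 11.5 CPM, and 1.31% of thinned cells held a UMI, against 0.29% of erythroid-like cells. With stricter gates the MGE-like level was 6.497 CPM.

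Nr2f1, a nuclear receptor that patterns the cortex as well as marking CGE cells, was above 100 CPM in every excitatory class and cortical progenitor class, though not in deep-layer-like cells under stricter gates (97.3 CPM). Its level was 287 ± 19.1 CPM in IPC-like cells, 287 ± 4.18 CPM in newborn excitatory-like neurons, 231 ± 3.51 CPM in RGC-like cells and 137 ± 10.3 CPM in upper-layer-like neurons (SD, n = 2). CGE-like neurons, at 203 and 262 CPM, overlapped the RGC-like cells. Striatal direct-like neurons held 34.1 and 19.2 CPM.

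Nr2f2, known from veins and mesenchyme as well as the CGE, was highest outside the interneurons. Cajal-Retzius-like cells carried 537 and 646 CPM, mural-like cells 484 and 435 CPM and fibroblast-like cells 317 and 283 CPM, and the last overlapped CGE-like neurons at 297 and 286 CPM. Among cortical excitatory neurons, deep-layer-like cells held 164 and 159 CPM and upper-layer-like cells 18.9 and 20.02 CPM, an 8.30-fold difference in level. With stricter gates the levels of Nr2f2 were 103 and 12.4 CPM. Nr2f1 was 1.13-fold higher in deep-layer-like than in upper-layer-like cells, and this order turned with stricter gates, at 97.3 and 133 CPM. Nr2f2 in microglia-like cells, at 73.0 and 100.2 CPM, rested on few cells, with 15 of 20 and 14 of 17 UMIs in 1 cell of each library.

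**Figure D1:**
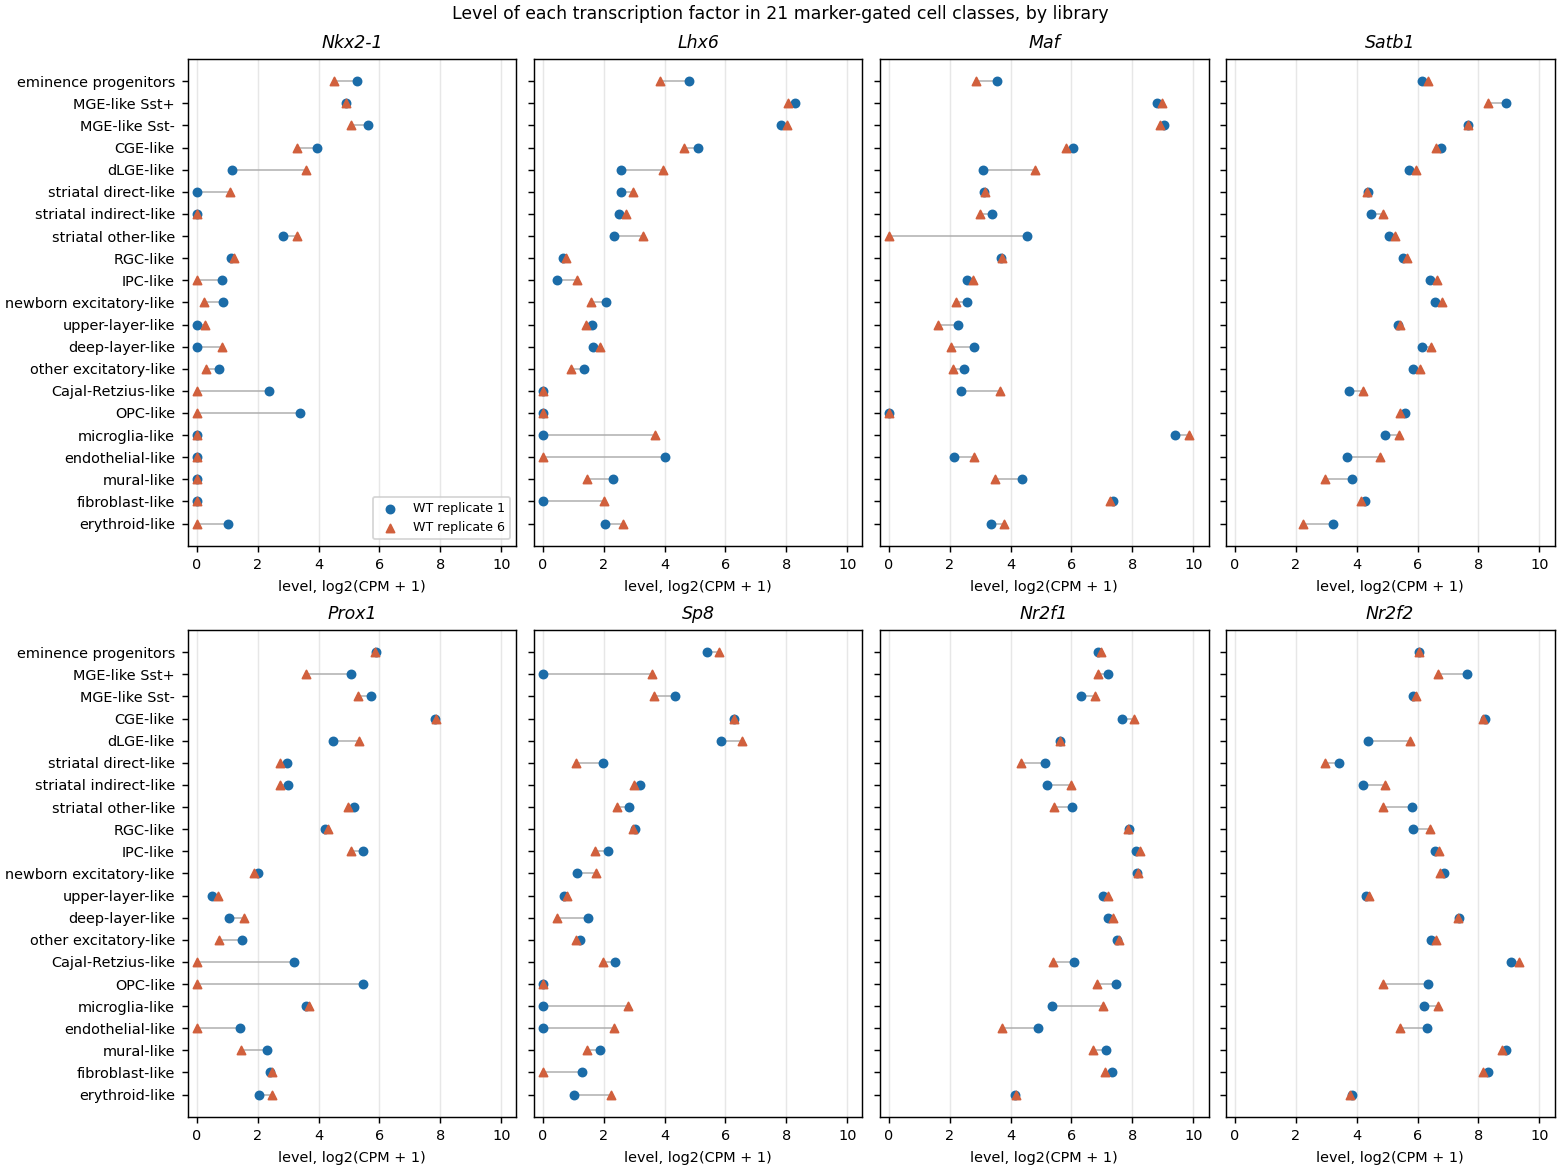
Level of each of the 8 genes (horizontal axis, log2 of CPM + 1) in the 21 classes (vertical axis), with a circle for WT replicate 1, a triangle for WT replicate 6 and a line joining them. Lhx6 and Nkx2-1 are high in MGE-like classes, Maf is higher still in microglia-like cells, and Nr2f2 peaks in Cajal-Retzius-like and mural-like cells.

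MGE-like neurons were compared with CGE-like neurons to ask how far the members separate the main interneuron lineages. UMIs were summed per library and class and tested with edgeR's quasi-likelihood test, with Benjamini-Hochberg adjustment over all genes tested and an adjusted p under 0.05 as the threshold for a called gene. All 8 members were called, where 6.52% of 10774 genes were. The members were chosen as factors of these lineages with earlier results of these data known. Their counts here and below therefore describe the chosen genes. Higher in MGE-like neurons were 4 (background 2.61% of genes), namely Lhx6, Maf, Nkx2-1 and Satb1, and lower were 4 (background 3.92%), namely Sp8, Prox1, Nr2f2 and Nr2f1. No member had overlapping library values.

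Lhx6 differed by 3.09 ± 0.17 on the log2 scale (SE, adjusted p = 7.4e-07), an 8.76-fold difference in mean CPM. Maf differed by 3.02 ± 0.14 (adjusted p = 3.6e-07). Satb1 and Nkx2-1 showed smaller differences of 1.23 ± 0.14 and 1.67 ± 0.32 (adjusted p = 0.00026 and 0.008). In the other direction, Sp8 fell by 2.54 and Prox1 by 2.50 on the log2 scale (adjusted p = 1.9e-05 and 3.8e-06). Nr2f2 fell by 1.91 and Nr2f1 by 1.20 (adjusted p = 1.1e-05 and 0.0004). All 8 were called under each alternative fit, filter and gate tried, though stricter gates moved Sp8 to -3.79, Prox1 to -3.09 and Nkx2-1 to 2.38.

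Among 26 other transcription factors of the subpallial lineage, 23 were tested, 6 were higher in MGE-like neurons and 8 were lower. Their median log2 difference was -0.56, against -0.00049 over all genes tested. Cux2, a homeobox gene, was at 612 and 754 CPM in MGE-like and 84.7 and 80.8 CPM in CGE-like neurons (log2 difference 3.02 ± 0.15). Meis2 and Zfhx4 fell by 2.66 and 2.91 on the log2 scale.

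Striatal-like neurons share the ventral origin but not the cortical destination. Against them, all 8 members were called and all were higher in MGE-like neurons, where 18.9% of 11565 genes were called and 9.71% were called higher. Maf led with a log2 difference of 5.83 ± 0.20, from 11.4 and 5.83 CPM in striatal-like neurons, and Lhx6 followed with 5.48 ± 0.17 (adjusted p = 6.5e-09 and 4.1e-09). Nkx2-1 differed by 4.38 ± 0.37 and Satb1 by 3.33 ± 0.14. The 4 CGE-type members showed differences between 1.37 ± 0.13 (Nr2f1) and 1.93 ± 0.18 (Nr2f2). Sp8, with 13 and 8 UMIs in striatal-like neurons, differed by 1.496 ± 0.36 (adjusted p = 0.013), and its call was lost in DESeq2 (adjusted p = 0.1). It was not tested under stricter gates, where its MGE-like level was 6.497 CPM. Of the Sp8 UMIs in Sst- MGE-like neurons, 61.5% and 63.6% were in 5 cells of each library. Stricter gates raised Lhx6 to 6.62, Maf to 6.65, Nkx2-1 to 5.32, Prox1 to 2.81 and Nr2f2 to 2.59, and Nkx2-1 differed by 3.61 in WT replicate 6 alone. Of the other factors, 11 of 21 tested were higher and 5 lower, the latter including Zfhx3, which fell by 5.13, and Meis2, which fell by 4.08 on the log2 scale.

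Within the striatal-like neurons, direct and indirect pathway types were compared. Of 3 members that passed the filter on low counts, 0 were called by edgeR, where 6.06% of 8766 genes were. The unadjusted p was under 0.05 for 2 of the 3, and DESeq2 also called 0. Nr2f2 stood at 9.76 and 6.78 CPM in direct-like and 17.6 and 29.4 CPM in indirect-like neurons, with a log2 difference of -1.45 ± 0.45 (adjusted p = 0.11). Of its 15 UMIs in indirect-like neurons of WT replicate 1, 9 were in 1 cell. Nr2f1 gave -0.82 ± 0.36 (adjusted p = 0.32) and Satb1 -0.32 ± 0.33 (adjusted p = 0.77). With the library as a replicate block, Nr2f2 and Nr2f1 were called (adjusted p = 0.024 and 0.044). By contrast, 10 of 17 other factors tested were called, with Sp9 lower by 3.94 on the log2 scale and Sall3 higher by 3.62 ± 0.67 in direct-like neurons.

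CGE-like and dLGE-like neurons are close relatives, and the latter are known mainly as precursors of olfactory bulb interneurons. Of the 7 members tested, 5 were called, all higher in CGE-like neurons, against a background of 5.82% of 8985 genes called and 3.71% called higher. Nr2f2 differed by 3.02 ± 0.26, Prox1 by 2.93 ± 0.22 and Nr2f1 by 2.26 ± 0.19 on the log2 scale. Their dLGE-like levels were 19.9 and 52.4, 21.1 and 39.0, and 48.4 and 48.7 CPM in the same order. Sp8 differed by 0.06 ± 0.22 (adjusted p = 0.94), with overlapping libraries. Nkx2-1, at 1 and 9 UMIs in dLGE-like neurons, was not tested.

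Maf and Satb1 were also called in this comparison, with 1.82 ± 0.37 and 0.87 ± 0.19 (adjusted p = 0.01 and 0.015). The dLGE-like libraries disagreed on Maf, with 7.45 and 26.8 CPM, and its log2 difference was 3.03 and 1.04 in WT replicates 1 and 6. Stricter gates gave 3.51 for Maf, with 95.4 CPM in CGE-like and 7.15 CPM in dLGE-like neurons. That of Nr2f2 was 3.87 and 2.44 in the libraries. Lhx6 had an adjusted p of 0.059, or 0.0016 with the library as a replicate block. The call of Satb1 was lost in DESeq2 (adjusted p = 0.3) and with stricter gates (0.23), and that of Maf with the narrower cell filter (0.059). Of 21 other factors tested, Npas1 and Npas3 were higher in CGE-like neurons by 4.81 ± 0.33 and 4.005 ± 0.22, while Zfhx3 and Zfhx4 were lower by 1.79 and 1.59.

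**Figure D2:**
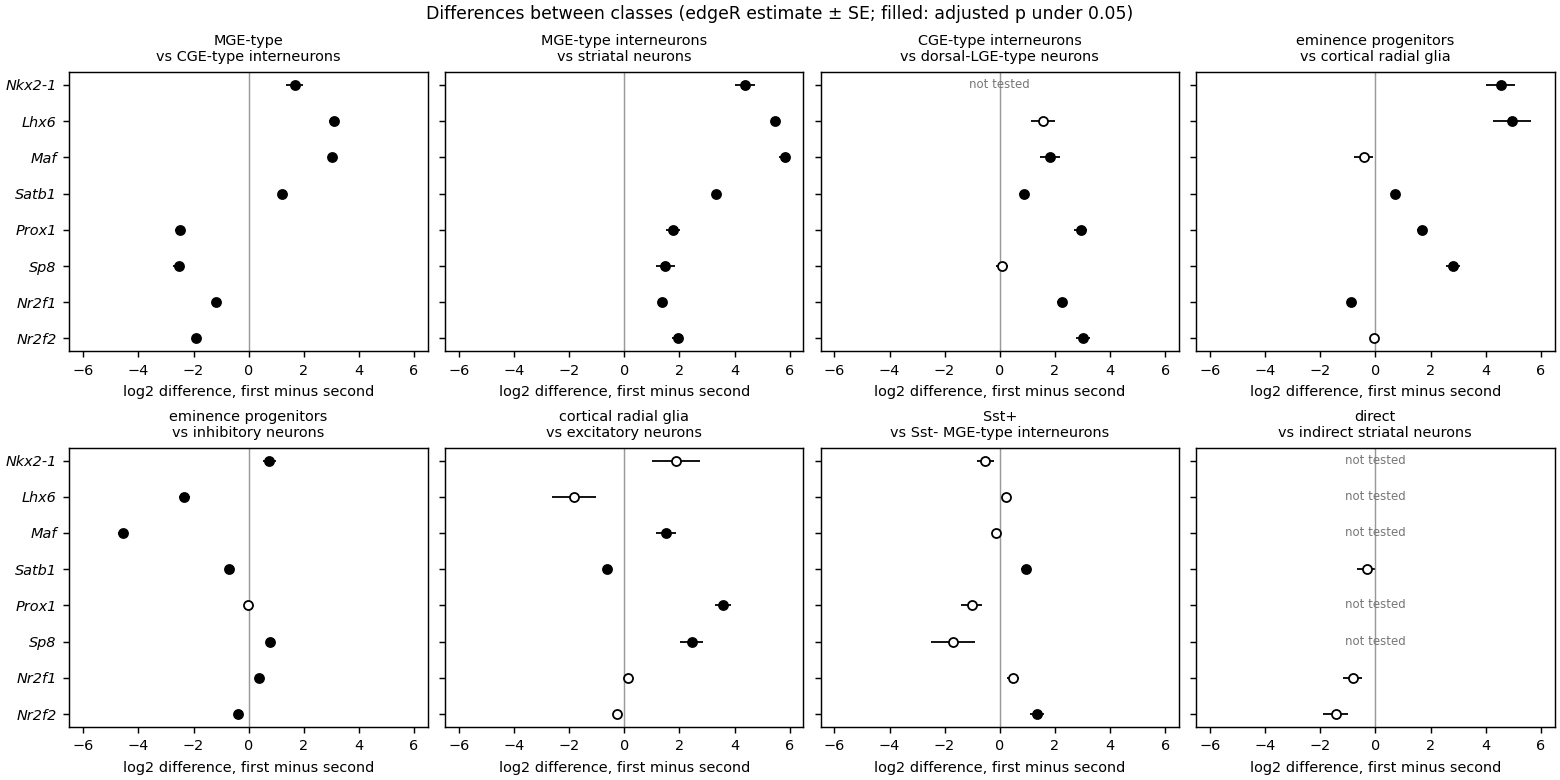
Log2 difference of each gene between the first-named and the second-named class (points, edgeR estimate; bars, SE) in the 8 comparisons, with filled points for an adjusted p under 0.05 and empty points for the rest. All 8 points are filled in both MGE comparisons, with signs split 4 and 4 against CGE-like neurons.

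Cycling eminence progenitors were set against RGC-like cells of the cortex. These classes also differed in cycling and glial markers, with Mki67 at 649 and 269 CPM and Slc1a3 at 131 and 839 CPM, whose part in the differences was not tested. Of 8 members, 6 were called, where 42.9% of 11795 genes were, with 5 higher in eminence progenitors (background 20.9%) and 1 lower (background 22.0%). Nkx2-1 had 187 UMIs in eminence progenitors and 4 in RGC-like cells, and Lhx6 had 128 and 2. For Lhx6 the ratio of levels was 32.2, with an exact 95% counting interval of 8.73 to 269. Nkx2-1 differed by 4.55 ± 0.52 on the log2 scale (adjusted p = 7.8e-05), or 3.80 in WT replicate 6 alone and 5.60 with stricter gates. Sp8 was higher by 2.82 ± 0.27 and Prox1 by 1.70 ± 0.18, and Satb1 by 0.71 ± 0.15.

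Nr2f1 was the member lower in eminence progenitors, at 117 and 124 CPM against 233 and 228 CPM, and it fell by 0.88 on the log2 scale (adjusted p = 9.7e-05). Nr2f2, at 65.2 and 65.6 CPM against 57.3 and 83.8 CPM, gave -0.04 ± 0.17 (adjusted p = 0.88). Maf gave -0.43 ± 0.36 (adjusted p = 0.36), at levels close to those of erythroid-like cells in both classes, which were deeper than the erythroid-like cells. Whether these Maf levels are background was not tested. Of 21 other factors tested, 13 were higher in eminence progenitors and 4 lower. Sp9, at 163 and 166 CPM against 1.18 and 0.68 CPM, and Dlx6, at 49.2 and 53.4 CPM against 1.18 and 2.04 CPM, were among them.

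Eminence progenitors were next compared with the inhibitory neurons pooled over MGE-like, CGE-like, dLGE-like and striatal-like classes. Of 8 members 7 were called, but so were 58.8% of 13358 genes. Higher in progenitors were 3 (background 29.0%) and lower were 4 (background 29.8%). Maf fell by 4.55 and Lhx6 by 2.33 in progenitors on the log2 scale (adjusted p = 5.1e-10 and 6.9e-07). Satb1 and Nr2f2 fell by 0.72 and 0.40. Sp8 was higher by 0.77 ± 0.15, Nkx2-1 by 0.75 ± 0.23 and Nr2f1 by 0.36 ± 0.10. Prox1 gave -0.02 ± 0.11 (adjusted p = 0.87), from 58.1 and 56.7 CPM against 60.9 and 56.4 CPM.

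The calls of Nkx2-1, Nr2f1 and Nr2f2 were lost in DESeq2 (adjusted p between 0.063 and 0.077). Those of Nkx2-1 and Nr2f1 were also lost when every class entered 1 joint fit (adjusted p = 0.057 and 0.13), and that of Nkx2-1 with the narrower cell filter (0.055). Nr2f1 gave 0.06 on the log2 scale with stricter gates (adjusted p = 0.73), under which Prox1 fell by 0.35 in progenitors (adjusted p = 0.024). The pool also mixes classes in which the members differ strongly. The progenitor class is mixed as well, since it was not split by eminence. Nxph1 UMIs were found in 6.96% of its cells, Sox6 in 60.3%, Adarb2 in 44.8% and Pbx3 in 79.7%. Differences of this class from 1 neuron class therefore also carry class composition, whose part was not tested. Set against MGE-like neurons alone, Lhx6 was 12.5-fold lower in progenitors (9.12-fold in WT replicate 1, and 19.1-fold in WT replicate 6) and Satb1 3.25-fold lower, as ratios of mean CPM. Nkx2-1 overlapped between progenitors (37.2 and 21.7 CPM) and MGE-like neurons (44.1 and 32.0 CPM). Against CGE-like neurons, Prox1 was lower in progenitors, at 58.1 and 56.7 against 224 and 233 CPM. Sp8 was also lower, at 40.9 and 54.4 against 77.5 and 76.5 CPM. Nr2f1 was lower as well, at 117 and 124 against 203 and 262 CPM. Prox1, Sp8 and Nr2f1 were each higher in progenitors than in MGE-like neurons.

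Along the excitatory lineage, RGC-like cells were compared with excitatory-like neurons. Of 8 members, 4 were called, where 59.2% of 15078 genes were, with 3 higher in RGC-like cells (background 29.0%) and 1 lower (background 30.1%). Prox1 was higher by 3.58 ± 0.29, Sp8 by 2.44 ± 0.41 and Maf by 1.51 ± 0.35, and Satb1 fell by 0.64. Sp8 rested on 12 and 10 UMIs in RGC-like cells and Maf on 20 and 18. The call of Maf was lost with stricter gates (adjusted p = 0.097).

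Nr2f1, at 233 and 228 CPM in RGC-like and 177 and 191 CPM in excitatory-like cells, gave 0.13 ± 0.09 (adjusted p = 0.22). The scaling mattered here, since TMM moved the median of all genes from 0.13 to -0.06 on the log2 scale. Without it, Nr2f1 gave 0.33 (adjusted p = 0.009) and Satb1 -0.45. Nr2f2 gave -0.26 ± 0.14 (adjusted p = 0.13, or 0.039 with the replicate block). Of all genes called, 49.1% were higher in RGC-like cells with TMM and 59.5% without it. Nkx2-1 and Lhx6, with 4 and 2 UMIs over both RGC-like libraries, were not called (adjusted p = 0.084 and 0.073).

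Sst+ and Sst- MGE-like neurons were compared to follow the factors within the lineage. Only Nr2f2 and Satb1, 2 of 8 members, were called, both higher in Sst+ neurons, where 2.99% of 10052 genes were called and 2.1% were called higher. Nr2f2 was at 197 and 102 CPM in Sst+ against 56.7 and 60.4 CPM in Sst- neurons (log2 difference 1.35 ± 0.25, adjusted p = 0.02). Its UMIs in Sst+ neurons came from 24 and 16 cells, with 49.6% and 58.7% of them in 5 cells of each library. In Sst- neurons the top 5 cells held 34.8% and 27.2%. Satb1 differed by 0.96 ± 0.18 (adjusted p = 0.022), and by 1.24 and 0.68 in WT replicates 1 and 6. In Sst+ neurons, 33.6% and 31.7% of its UMIs were in 5 cells of each library, against 11.6% and 12.2% in Sst- neurons. The log2 difference of Nr2f2 was 1.79 and 0.75 in WT replicates 1 and 6, and its call was lost with the narrower cell filter (adjusted p = 0.11).

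Lhx6 and Maf gave 0.22 ± 0.15 and -0.13 ± 0.14 between Sst+ and Sst- neurons (adjusted p = 0.55 and 0.74). Prox1, at 32.6 and 11.04 CPM against 51.8 and 38.7 CPM, gave -1.01 ± 0.38 (adjusted p = 0.23, or 0.038 with the replicate block). Sp8 had 0 and 5 UMIs in Sst+ neurons and a ratio of levels of 0.31 (exact 95% counting interval 0.097 to 0.763). Sst+ neurons were deeper, with a median of 4901.5 UMIs against 3561.5. Whether depth took part in the differences was not tested. Of 19 other factors tested, 0 were higher and 6 lower in Sst+ neurons, with St18 lower by 2.35 and Meis2 by 1.64 on the log2 scale.

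Co-detection of the members was then examined cell by cell, after thinning each cell to 2000 UMIs and leaving out shallower cells. For a pair of genes, the number of cells with both was divided by the number that the product of the separate shares gives. These ratios are descriptions of the cells of 2 libraries, without a test. In 993 MGE-like cells, at least 3 of the 8 members were found in 19.03% and 19.4% of cells in WT replicates 1 and 6, and none in 14.98% and 11.8%.

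Lhx6 and Sp8 hardly met. Lhx6 was found in 387 and Sp8 in 13 of the 993 MGE-like cells, and 0 cells held both, which allows a share of up to 0.302% by counting error, where the product of the shares gives 5.07 cells. Over all 2494 inhibitory neurons, 1 cell held both, against 18.8 from the product. Lhx6 and Nr2f2 were not found together in any of 410 CGE-like cells, where the product gives 5.85. In MGE-like cells, however, this pair did meet, with a ratio of 0.85, or 1.09 in unthinned cells.

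Lhx6 and Maf occurred together in MGE-like cells about as often as their shares give, with 219 cells and a ratio of 1.04. Lhx6 and Satb1 met in 141 cells with a ratio of 1.23, which was 1.27 and 1.21 in the libraries. Maf in MGE-like cells had a ratio of 0.57 with Prox1 (0.59 and 0.55 in the libraries), 0.50 with Nr2f2 (0.53 and 0.48) and 0.92 with Nr2f1. In CGE-like cells Maf and Prox1 had a ratio of 1.69, which was 2.03 and 1.17 in the libraries.

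Prox1, Nr2f1 and Nr2f2 were found together more often than the product of their shares in both lineages. In MGE-like cells the ratio was 3.04 for Prox1 with Nr2f2, 2.18 for Prox1 with Nr2f1 and 2.22 for Nr2f1 with Nr2f2. In CGE-like cells these ratios were 1.54, 1.35 and 1.45. Stricter gates took Prox1 with Nr2f1 in CGE-like cells to 0.96. Nr2f1 with Nr2f2 also had ratios of 3.23 in eminence progenitors, 1.95 in IPC-like cells and 2.14 in excitatory-like neurons. The ratio depends on how cells are pooled: for Lhx6 with Maf it was 2.19 over all inhibitory neurons and 1.04 within MGE-like cells.

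**Figure D3:**
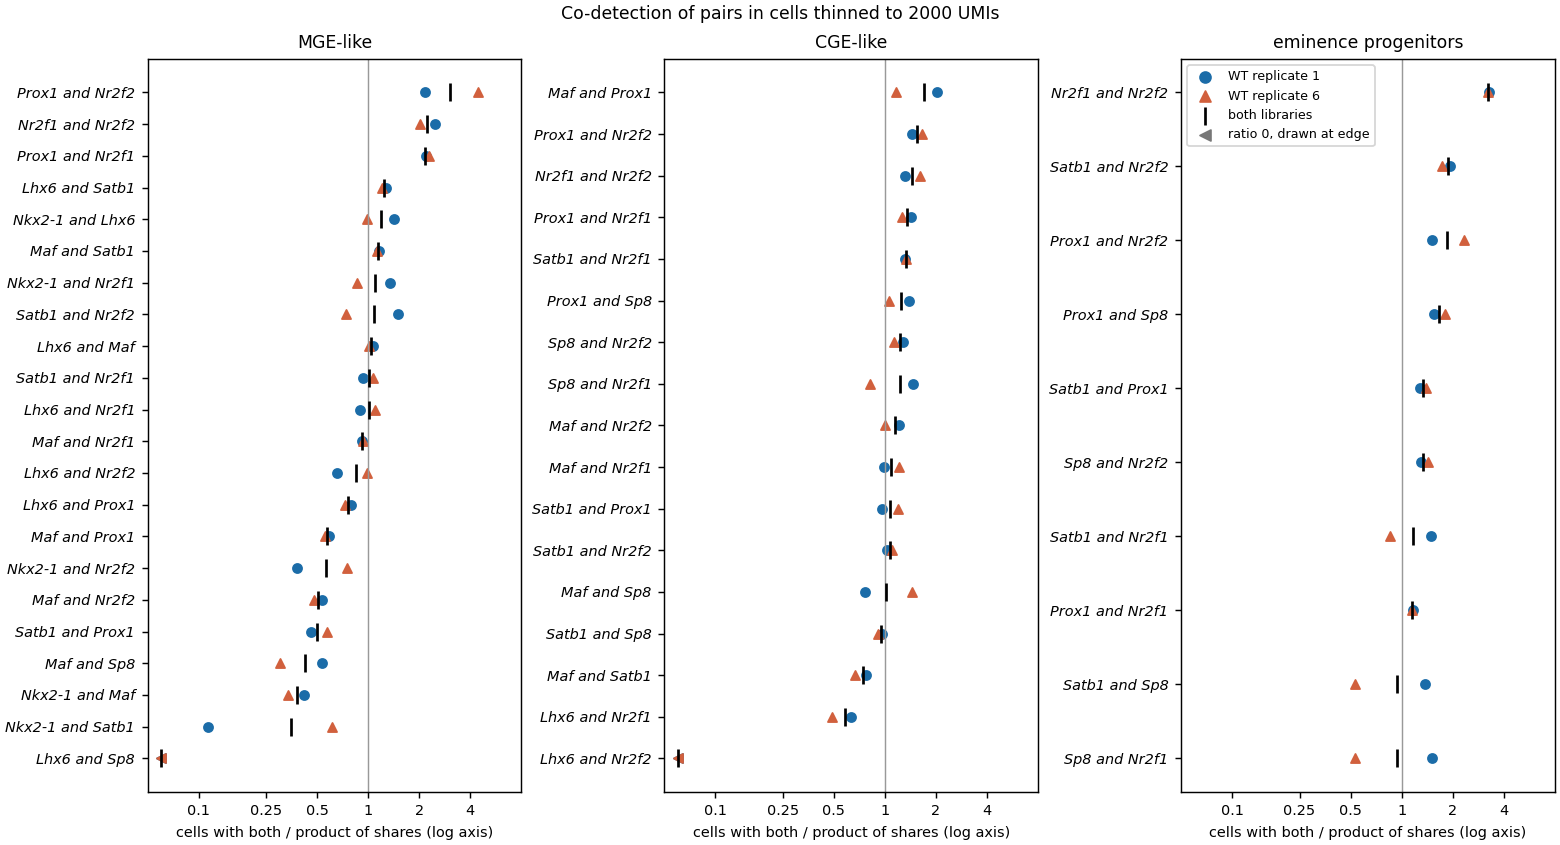
Cells with both genes divided by the number from the product of their shares (horizontal log axis) for each pair with a product of at least 5 cells, in MGE-like cells, CGE-like cells and eminence progenitors thinned to 2000 UMIs. Circles and triangles are the libraries and black ticks both together. The pairs of Prox1, Nr2f1 and Nr2f2 lie to the right of 1 in all 3 classes, and Lhx6 with Sp8 has a ratio of 0 in MGE-like cells.

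Nkx2-1 divided the MGE-like cells. After thinning, Nkx2-1 and Maf met in 12 cells where the product gives 31.6 (ratio 0.38, and 0.42 and 0.34 in the libraries). Nkx2-1 and Satb1 met in 6 cells where 17.1 are given (ratio 0.35, and 0.11 and 0.61 in the libraries). With Lhx6, its known target, the ratio was 1.19, and 1.42 and 0.98 in the libraries. These ratios were nearer to 1 in unthinned cells, at 0.65 for Maf and 0.83 for Satb1. A split of the class by Nkx2-1 was made after these values were seen, and it and the genes named from it are given without a test.

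Of the 1130 MGE-like cells, 116 held an Nkx2-1 UMI and 1014 did not, with medians of 5884.5 and 3546.5 UMIs per cell. Maf was at 178 and 219 CPM in cells with Nkx2-1 of WT replicates 1 and 6, against 581 and 513 CPM in cells without. Satb1 was at 147 and 111 CPM against 286 and 235 CPM. Lhx6 was kept, at 263 and 326 CPM against 240.0 and 251 CPM. Prox1 was higher in cells with Nkx2-1, at 96.5 and 51.4 CPM (44 and 12 UMIs) against 37.1 and 31.3 CPM (80 and 66 UMIs). Single Sst- cells held up to 14 and 12 Prox1 UMIs in the libraries, and their side of the split was not examined. The libraries disagreed on Nr2f2, with 123 and 42.9 CPM against 80.8 and 71.2 CPM.

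Other factors differed more. Lhx8, a LIM homeobox gene of striatal and pallidal neurons of MGE origin, was at 103 and 64.3 CPM in cells with Nkx2-1 and at 11.1 and 3.80 CPM in cells without. Mef2c was at 217 and 210.0 CPM against 1059 and 1082 CPM, and Cux2 at 153 and 214 CPM against 708 and 813 CPM. Npas3 stood at 338 and 339 CPM against 1299 and 1561 CPM, and Npas1 had 0 and 1 UMI in cells with Nkx2-1. St18 was higher, at 281 and 253 CPM against 65.5 and 97.3 CPM. Nxph1, a gate marker of the class, was at 2109 and 2417 CPM against 3978 and 4444 CPM. That all these values exceed the 77.5 CPM of CGE-like neurons follows from the gate and says nothing further on cell identity. Fewer transcripts of a gene per cell and fewer cells with the gene cannot be told apart in these sums, and the part of depth in the split was not tested.

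**Figure D4:**
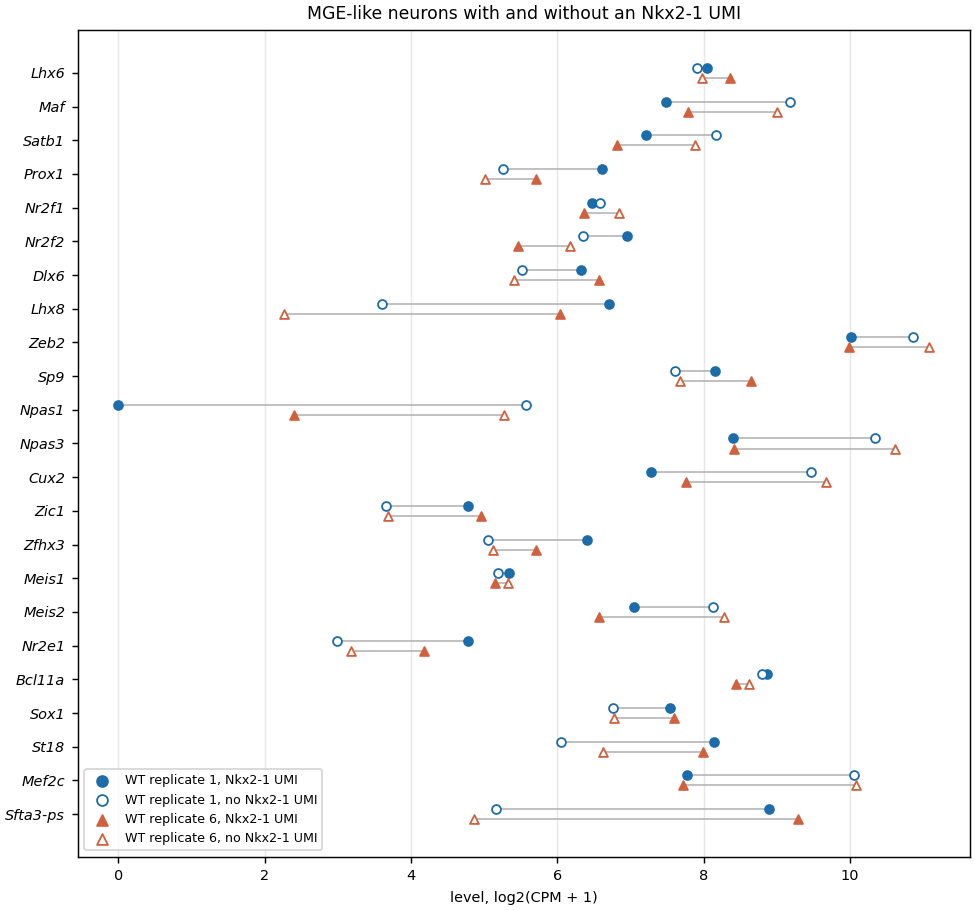
Levels (horizontal axis, log2 of CPM + 1) of the members and of other transcription factors that reach 20 CPM, in MGE-like cells with an Nkx2-1 UMI (filled) and without one (empty), by library. Sfta3-ps, the gene next to Nkx2-1, is shown last. Maf, Satb1, Cux2, Npas1, Npas3 and Mef2c are lower and Lhx8, St18 and Sfta3-ps higher in cells with Nkx2-1 in both libraries.

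The genes with the class pattern most like each member were found by Pearson's r of log2(CPM + 10) over the means of the 21 classes. The search covered 7846 genes with at least 50 CPM in 1 class and left out every gate marker, so no marker could rank. The points share libraries, and r is given as a description. For 4 of 8 members the most similar gene was a neighbour on the chromosome. Prox1os ranked first for Prox1 (r = 0.94), A830082K12Rik for Nr2f1 (r = 0.90), B130024G19Rik for Nr2f2 (r = 0.96) and Sfta3-ps for Nkx2-1 (r = 0.93). For Lhx6 it was Nxph2 on the same chromosome, 12680 kb away (r = 0.94), for Maf Gm41609 (r = 0.84), for Satb1 Alk (r = 0.84) and for Sp8 Insyn2b (r = 0.80).

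Positions were read from the RefSeq annotation of GRCm38.p6, the mm10 assembly. Prox1os, A830082K12Rik and B130024G19Rik, annotated as long non-coding RNAs, overlap the start of Prox1, Nr2f1 and Nr2f2 by 532, 857 and 1364 bp and run away from it. Nr2f1 and Nr2f2 lie on the minus strand and their partners on the plus strand. Whether the counting used strand was not given in the sources used here, and how reads from the overlaps were assigned between partners was not tested. Sfta3-ps ends 2515 bp from Nkx2-1 without overlap. Its level was 471 and 626 CPM in MGE-like cells with Nkx2-1 UMIs and 34.8 and 27.999 CPM in those without.

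The 250 bases before 1 annotated start of each member with an overlapping partner are shown because each lies wholly inside the partner gene. They are RefSeq sequence of GRCm38.p6 on the minus strand, 5′ to 3′, at chr1:190170828-190171077 for Prox1, chr13:78198874-78199123 for Nr2f1 and chr7:70366747-70366996 for Nr2f2. Capitals mark the letters CAAGTG, a core bound by NKX2-1, which was searched on both strands along with TAATTA, bound by many homeodomains, and AGGTCA, a nuclear receptor half-site.
Prox1: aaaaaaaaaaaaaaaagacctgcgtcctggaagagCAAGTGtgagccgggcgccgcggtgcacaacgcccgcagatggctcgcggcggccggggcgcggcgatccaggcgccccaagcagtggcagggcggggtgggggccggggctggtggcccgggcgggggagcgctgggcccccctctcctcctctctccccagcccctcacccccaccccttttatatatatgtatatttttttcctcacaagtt
Nr2f1: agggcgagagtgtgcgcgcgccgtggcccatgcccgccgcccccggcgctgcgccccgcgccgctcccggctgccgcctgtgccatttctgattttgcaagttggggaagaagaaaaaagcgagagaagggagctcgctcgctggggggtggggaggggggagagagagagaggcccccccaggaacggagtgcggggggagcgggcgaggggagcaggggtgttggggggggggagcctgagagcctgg
Nr2f2: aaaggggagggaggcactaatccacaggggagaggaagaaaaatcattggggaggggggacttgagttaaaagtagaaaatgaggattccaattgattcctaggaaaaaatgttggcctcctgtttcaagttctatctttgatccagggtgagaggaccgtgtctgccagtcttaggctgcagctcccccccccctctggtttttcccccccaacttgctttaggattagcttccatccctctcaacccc

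CAAGTG was found in the Prox1 window and in 11.6% of 32851 such windows. TAATTA, in 4.84% of all windows, and AGGTCA, in 14.0%, were in none of these 3 windows. A match is a run of letters and not a bound site. The Nr2f1 window had 72% G and C, the Prox1 window 64.8% and the Nr2f2 window 50%. Prox1 had 2 annotated windows, and only the first is shown. Windows at other starts of these members are not described here.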

How the data were processed

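Droplet libraries (10x Genomics 3′ chemistry) of 2 WT samples were analysed. The authors deposited raw UMI counts per gene and cell, made with Cell Ranger 7.0.0 and mm10 per the submitters' processing notes; filters before deposit and the strand setting are not given in the sources used here. The number of columns from other samples was 0. The libraries were distinct, with a chi-square of 28.2 per degree of freedom over 21368 genes.

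The cell filter required between 1500 and 60000 UMIs, less than 10% of them mitochondrial. Likely doublets, 920 and 857 cells, were left out by a score against simulated doublets. Classes were gated on marker UMIs with thresholds set after seeing the data. The members and lists were chosen with earlier results of these data known. Other factors were named by the largest called log2 differences, at most 4 per comparison. Some genes of that list are not reported here by name.

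UMIs were summed per library and class and tested two-sided with edgeR 4.0.16 (TMM, low-count filter, quasi-likelihood test, Benjamini-Hochberg adjustment over all genes) in R 4.3.3. DESeq2 1.42.0 was an alternative. On simulated data for MGE-like against CGE-like neurons, 67% of genes changed by 1 and 97% of those changed by 2 on the log2 scale were recovered among 10676 genes tested. The same library supplied both classes of a pair, and deviations of same-numbered sums correlated at r = 0.14 to 0.28. Alternatives were another cell filter, kept doublets, stricter gates, no TMM, no low-count filter, a replicate block, a single fit of all classes and each library left out. Intervals and limits at 0 cover counting error only.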

Additional observations from a re-analysis of the deposited data

How the results depend on the processing

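Over 8 fits, filters and gates, 456 tested member values were recomputed: 431 kept their side of the threshold, 13 lost the call, 12 gained it and 0 called values reversed. A change of direction between values that were both uncalled was counted among the 431. The number of members called fell from 7 to 4 in DESeq2 for eminence progenitors against inhibitory neurons, and from 2 to 1 with the narrower cell filter (3000 to 30000 UMIs, under 5% mitochondrial) for Sst+ against Sst- neurons. For direct against indirect striatal-like neurons it rose from 0 to 1 without the low-count filter and to 2 with the replicate block. The block added 5 member calls in all and changed no other. The cause was not tested. Of 116 levels of at least 10 CPM, 3 moved by over 1.5 times with the narrower cell filter, 10 with doublets kept and 15 with stricter gates. Of 117 co-detection ratios, 21 crossed 1 without thinning, 5 with doublets kept and 15 with stricter gates. With 1 library left out, no test was possible. Without WT replicate 1, 48 differences moved by less than the spread (SD) between libraries and 10 by more. Without WT replicate 6 these were 51 and 7. With 2 libraries, either one lies closer to their midpoint than their SD, however far apart they are. These counts therefore do not measure stability. Low counts limit Nkx2-1, Sp8 and Lhx6 outside their main classes.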
